A study of Homo sapiens with 9 samples.

Results

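The genes described here are 9 heat shock proteins and HSF1, the transcription factor that drives their induction by heat. They were taken by gene symbol and make up 10 of the 16199 genes listed in at least 1 library, and all 10 were listed in each of the 9 libraries and passed the filter on low counts. RNA was sequenced from HaCaT cells, an immortalized human epidermal keratinocyte line labelled wild type, after confluence. The 3 groups, of 3 libraries each, were untreated cells in serum-free medium, cells given epidermal growth factor (EGF) at 10 nM for 24 h and cells given bleogen pB1, a plant miniprotein that activates the EGF receptor, at 1 µM for 24 h, both also in serum-free medium. The design asks what each agonist does to gene expression. No label names a heat treatment or an altered HSF1 in any group. Nothing in the sources says that replicates came from separate cultures, so p-values measure only the spread between these libraries, which may be technical.

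Heat shock proteins are molecular chaperones, which bind unfolded or partly folded proteins and keep them from aggregating. HSP70 proteins bind short hydrophobic stretches in an ATP-driven cycle, J proteins deliver substrates and stimulate the ATPase, and nucleotide exchange factors release them. HSP90 completes the folding of signalling proteins, many kinases among them, and small heat shock proteins hold unfolded protein without ATP. In unstressed cells HSF1 is held inactive by chaperones, and on proteotoxic stress it forms trimers that bind heat shock elements, which are inverted repeats of the unit GAA. In the endoplasmic reticulum the unfolded protein response controls a separate set of chaperones, with HSPA5 as its best known target. In epidermis HSPB1 rises as keratinocytes differentiate.

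The libraries held 20288417 to 21320994 expected counts each. Levels are given as CPM, expected counts scaled to a common library size with TMM factors, for comparisons between groups, and as FPKM, which also divides by transcript length, for comparisons between genes. A gene was called up- or downregulated at an adjusted p of at most 0.05 and an absolute log2 fold change of at least 0.5, with edgeR's quasi-likelihood test over 12394 genes. The 10 genes took 1.01% to 1.05% of all expected counts in untreated libraries, 1.67% to 1.81% with EGF and 1.16% to 1.43% with bleogen pB1. All 10 keratinocyte markers, KRT5, KRT14 and TP63 among them, passed the filter. They summed to 13879 to 15108 CPM in untreated libraries, 12468 to 13344 with EGF and 13925 to 15945 with bleogen pB1. The sum was thus lower in the EGF libraries than in the others. Single markers did not all follow it, since ITGA6, 1 of the 10, had a log2 fold change of 1.30 with EGF. Of the other marker lists, fibroblast markers summed to 7.62 to 9.31 CPM in untreated libraries, 1.30 to 1.95 with EGF and 6.08 to 9.08 with bleogen pB1, leukocyte markers to 11.7 to 12.5, 19.2 to 21.2 and 10.3 to 11.7, and endothelial markers to 3.44 to 4.78, 0.289 to 0.504 and 1.16 to 1.91. Melanocyte markers did not exceed 1.72 CPM in any library. TYR and MS4A1 had no counts in any library. Of these lists 3 of 6 fibroblast, 1 of 5 leukocyte, 2 of 4 endothelial and 1 of 5 melanocyte genes passed the filter, and their part in the results was not tested. In bulk RNA, a smaller share of cells that express a gene and less of its RNA per cell cannot be told apart.

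EGF raised the cytosolic chaperones and the endoplasmic reticulum chaperone HSPA5 by up to 2.27-fold, or 0.58 to 1.19 on the log2 scale, and lowered the small heat shock protein HSPB1 to 0.294 of its untreated level. Of the 10 genes, 8 were upregulated and 1 was downregulated, where 15.1% of all tested genes were called higher and 21.8% lower. HSF1 passed the adjusted p but not the fold limit, so that 9 genes were higher and 1 lower by adjusted p alone, against 32.4% and 33.6% of all tested genes. In none of the 10 did the EGF and untreated libraries overlap, with 9 higher and 1 lower, against 34.5% and 35.9% of tested genes. The median log2 fold change of the 10 was 0.65, beside -0.01 over all tested genes.

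With bleogen pB1, 6 of the same chaperones stood above untreated cells in every library, by at most 0.46 on the log2 scale, and none was called. No gene of the 10 passed both limits with edgeR, DESeq2 or limma, where 0.218% of tested genes were called higher and 1.26% lower with edgeR. Without pB1 replicate 1, HSPA8 alone was called. By adjusted p alone HSPA8, HSP90AA1, HSPH1 and HSPA5 were higher, 4 of the 10 against 1.56% of tested genes higher and 2.55% lower. At an unadjusted p under 0.05, HSPA1A and HSP90AB1 joined them, which made 6 higher and none lower, against 11.7% and 10.5%. The same 6 genes had pB1 libraries that were all above the untreated ones, against 14.4% of tested genes above and 14.7% below. The median log2 fold change of the 10 was 0.24, beside -0.001 over all tested genes. The count by adjusted p depended on single libraries and on the settings. The 4 became 6 without pB1 replicate 1 and 0 without any 1 of pB1 replicate 2, pB1 replicate 3 or an untreated library. With limma on log2(FPKM + 1) it was 1 (HSPA5), with upper-quartile factors 2 (HSP90AA1 and HSPA8) and with DESeq2 6. The number of all tested genes called, 183, became 436 without pB1 replicate 1, 109 without pB1 replicate 2, 102 without pB1 replicate 3 and 102 without untreated replicate 1.

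Compared directly, EGF-treated cells had more of 9 of the genes than pB1-treated cells and less HSPB1. Of the 10, 5 were called higher with EGF (HSPA1A, HSPA8, HSP90AA1, HSPH1 and DNAJB1) and HSPB1 lower, against 10.8% and 18.0% of tested genes. By adjusted p alone all 10 differed, 9 higher and 1 lower, against 28.5% and 29.7%. The libraries of the 2 treatments did not overlap for any of the 10, against 30.7% of tested genes higher and 31.7% lower. The median log2 difference of the 10 was 0.49, beside -0.01 over all tested genes. The 2 comparisons with untreated cells share the untreated libraries. With 3 libraries against 3, an exact permutation test of a single gene cannot give a p under 0.1, which every gene with separate groups reached.

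**Figure D1:**
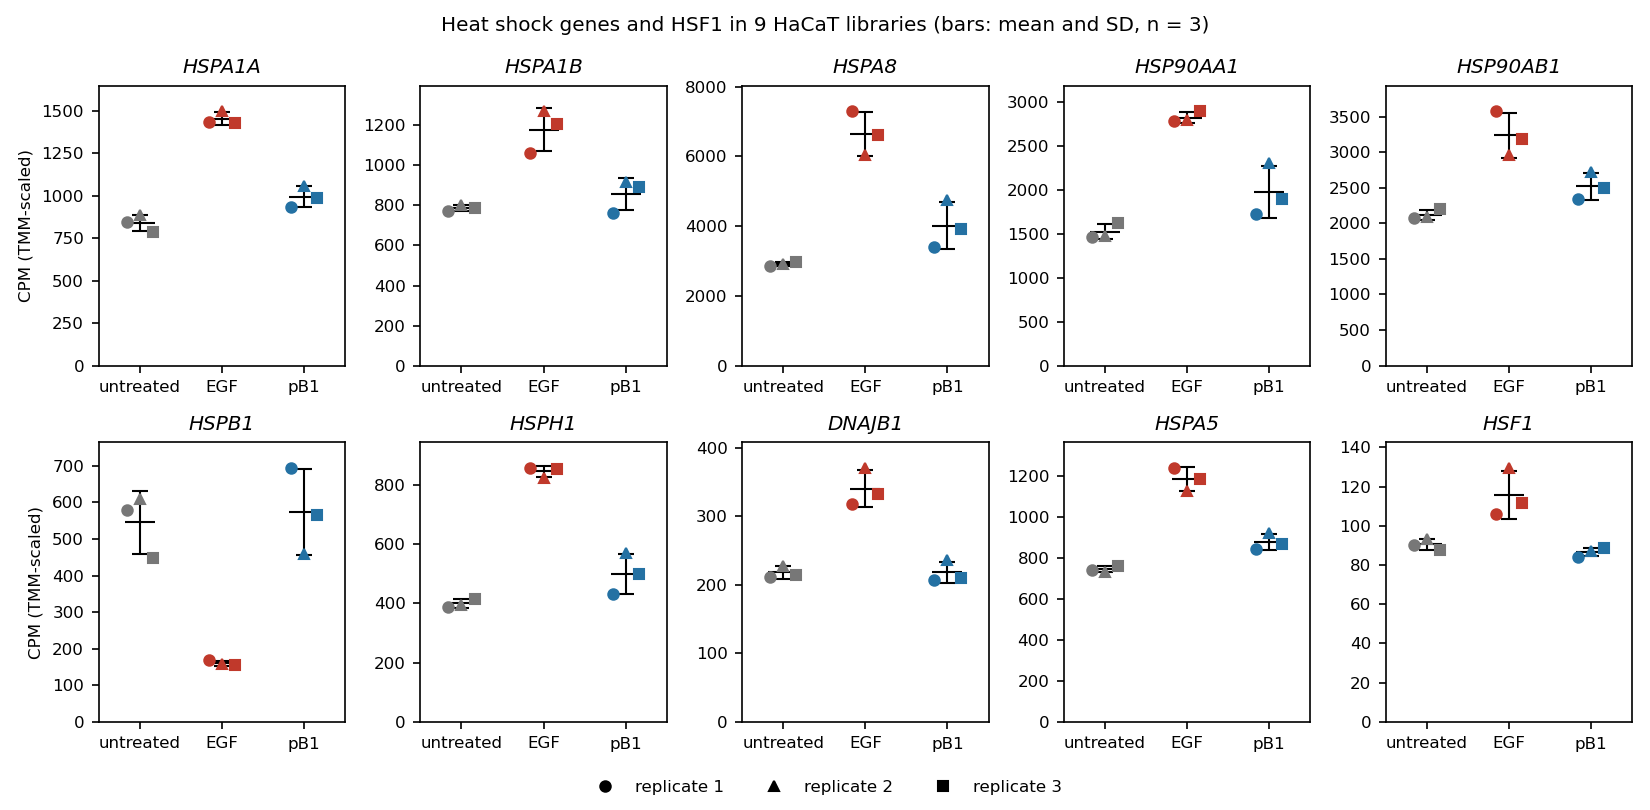
Level of each gene in every library, in CPM on axes from 0, with the mean and SD of each group (n = 3) and a marker shape for each replicate. All EGF libraries lie above the untreated ones for 9 genes and below them for HSPB1, and pB1 replicate 2 is the highest pB1 library for 8 of the 10 genes.

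The promoter stretches shown next hold the known recognition sequences of these pathways, and they show which of the genes share them and how alike the HSPA1A and HSPA1B promoters are. They are RefSeq sequence of GRCh38.p14, read 5′ to 3′ on the gene's strand from windows of 250 bases before to 50 after a transcription start. Windows were matched for 9 of the 10 genes, 14 windows in all, and positions are counted from the start of each window's transcript, the base before it being -1. Capitals mark GAANNTTC or TTCNNGAA, 2 inverted GAA units, in all stretches but the last, and also the TATA box TATAAA in HSPA1A and HSPA1B. In HSPA5 they mark an endoplasmic reticulum stress element, CCAAT and CCACG with 9 bases between them.
HSPA1A: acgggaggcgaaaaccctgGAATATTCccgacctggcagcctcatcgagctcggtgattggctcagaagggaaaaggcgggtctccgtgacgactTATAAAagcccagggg
HSPA1B: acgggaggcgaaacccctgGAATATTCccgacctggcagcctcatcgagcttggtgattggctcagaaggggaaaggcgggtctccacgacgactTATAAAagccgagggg
HSPA8: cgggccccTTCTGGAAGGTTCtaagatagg
HSP90AA1: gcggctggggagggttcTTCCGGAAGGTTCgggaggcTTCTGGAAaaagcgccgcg
HSP90AB1: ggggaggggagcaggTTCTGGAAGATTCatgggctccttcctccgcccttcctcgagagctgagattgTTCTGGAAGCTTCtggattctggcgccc
DNAJB1: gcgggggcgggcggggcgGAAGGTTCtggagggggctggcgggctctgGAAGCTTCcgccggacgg
HSPB1: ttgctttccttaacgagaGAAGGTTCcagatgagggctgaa
HSPA5: ccttcaCCAATCGGCGGCCTCCACGacggg

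The HSPA1A stretch lies at chr6:31815418-31815528 and the HSPA1B stretch at chr6:31827614-31827724, both on the plus strand and upstream of every annotated exon, and over 111 bases they differ at 6. The HSPA8 stretch, at chr11:123062170-123062199 on the minus strand, overlaps an exon of a longer annotated HSPA8 transcript. Those of HSP90AA1, at chr14:102087094-102087149 on the minus strand, and of HSP90AB1, at chr6:44247763-44247858 on the plus strand, lie inside the span of longer transcripts of the same genes but in no exon. The DNAJB1 stretch, at chr19:14518427-14518492 on the minus strand, lies in no exon but inside the spans of DNAJB1 and of TECR on the other strand. HSPB1, at chr7:76302473-76302513 on the plus strand, and HSPA5, at chr9:125241386-125241415 on the minus strand, have their stretches outside any annotated gene. GAANNTTC was present in a window of 7 of the 9 genes and in 6.77% of all 35116 windows (8.21% of 27305 genes), and TTCNNGAA in 3 of the 9 and in 7.74% of windows (9.46% of genes). GAANNTTC began at -106 in HSPA1A and 1 base nearer to the start in HSPA1B, at -182 in HSPB1 and at -77 and -47 in the DNAJB1 stretch shown. Another DNAJB1 window held it from position 1 of its own transcript. GAANNTTC and TTCNNGAA overlap where 3 units follow each other, and such a triple was found in HSPA8, HSP90AA1 and HSP90AB1 and in 0.490% of windows (0.608% of genes). It began at -55 in HSPA8, which held another at -230, at -88 in HSP90AA1 and at -165 and -112 in HSP90AB1. The endoplasmic reticulum stress element was found in HSPA5 alone of the 9, at -66, and in 0.0769% of windows. TATAAA stood in HSPA1A and HSPA1B and in 11.5% of windows, and CCAAT, which is also part of the endoplasmic reticulum stress element, in 6 of the 9 and in 34.6%. All motifs were searched on both strands. The HSPH1 windows held none of the 3 heat shock patterns. A match is a description of letters and not evidence of binding.

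Gene positions are those of GENCODE release 44 on GRCh38. HSPA1A (NCBI gene 3303, chr6:31815543-31817946) and HSPA1B (NCBI gene 3304, chr6:31827738-31830254) are neighbours on the plus strand, and HSP90AB1 (NCBI gene 3326, chr6:44246166-44253888) lies on the same chromosome and strand. HSPB1 (NCBI gene 3315, chr7:76302673-76304295) is on the plus strand. HSPA8 (NCBI gene 3312, chr11:123057489-123063230), HSP90AA1 (NCBI gene 3320, chr14:102080742-102139699), HSPH1 (NCBI gene 10808, chr13:31134973-31162388), DNAJB1 (NCBI gene 3337, chr19:14514769-14560391) and HSPA5 (NCBI gene 3309, chr9:125234853-125241382) are on the minus strand. HSPA1B overlaps ENSG00000285565 on the same strand and HSPA8 overlaps ENSG00000288061 on the opposite one. HSPA8 also contains 3 small nucleolar RNA genes on its own strand, SNORD14C, SNORD14D and SNORD14E, while HSP90AA1 overlaps WDR20 and DNAJB1 overlaps TECR and MIR639 on the opposite strand. These overlaps are of whole gene spans, introns included, and overlap of exons was not examined. The library kit marked strand, but whether counting used it is not given in the sources used here. Whether reads of the overlapping genes entered the counts of the members was not tested.

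HSPA8, the constitutive HSP70 that folds newly made proteins and uncoats clathrin vesicles, gave the largest increase among the 10. Its level was 2865, 2922 and 2977 CPM in untreated replicates 1 to 3, 7292, 6029 and 6604 CPM with EGF and 3400.4, 4742 and 3909.6 CPM with bleogen pB1. The 3 groups did not overlap, with EGF highest and pB1 between. The log2 fold change was 1.19 ± 0.11 (SE), with an adjusted p of 1e-06, for EGF and 0.46 ± 0.11 (SE), with an adjusted p of 0.032, for bleogen pB1. Between EGF and pB1 it was 0.73 ± 0.11 (SE), with an adjusted p of 8.3e-05. The pB1 difference was called without pB1 replicate 1, at 0.57, and was 0.32 without replicate 2, and its adjusted p ranged from 0.00056 to 0.16 over the settings tried.

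HSPA1A and HSPA1B encode the stress-inducible HSP70, and their promoters carry the same GAANNTTC and TATA box at nearly the same distance from the start. HSPA1A measured 843, 884 and 788 CPM in untreated cells, 1436, 1497 and 1427 CPM with EGF and 936, 1060.0 and 985 CPM with bleogen pB1. HSPA1B measured 774, 801 and 786 CPM, 1060.2, 1269 and 1206 CPM and 764, 917 and 890.5 CPM in the same groups. EGF libraries were the highest for both genes, and for HSPA1B pB1 replicate 1 lay below the untreated range. EGF changed HSPA1A by 0.79 ± 0.07 (SE), with an adjusted p of 4.8e-07, on the log2 scale, and HSPA1B by 0.58 ± 0.08 (SE), with an adjusted p of 3.6e-05. HSPA1B came to 0.48 with upper-quartile scaling, just under the fold limit. For bleogen pB1 the values were 0.25 ± 0.06 (SE), with an adjusted p of 0.052, for HSPA1A and 0.12 ± 0.08 (SE), with an adjusted p of 0.39, for HSPA1B. The HSPA1B value was 0.20 without pB1 replicate 1 and 0.07 without pB1 replicate 2. The direct difference between EGF and pB1 was 0.55 ± 0.06 for HSPA1A (adjusted p 1.5e-05), which was 0.46 to 0.48 and not called with upper-quartile scaling, no scaling factors or limma on FPKM, and 0.46 ± 0.08 for HSPA1B (adjusted p 0.00034), which reached the limit without EGF replicate 1 (0.53) or without pB1 replicate 2 (0.52).

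HSPA1A and HSPA1B share most of their sequence, so how reads divide between them is uncertain. Their coding sequences are 1923 bases long each and differ at 4 bases, 99.8% identity, and 1660 of 1824 stretches of 100 bases (91.0%) in HSPA1A occur unchanged in HSPA1B. The deposited counts of both genes, given to 2 decimals, had fractional parts in all 9 libraries, as counts that divide reads among transcripts do. This was not limited to the pair, since counts were whole in only 1 library for HSF1 and in 3 for HSP90AA1. Summed before the fit, the pair changed by 0.70 ± 0.07 (SE) with EGF (adjusted p 2.4e-06), by 0.19 ± 0.07 with bleogen pB1 (adjusted p 0.13) and by 0.51 ± 0.07 between EGF and pB1 (adjusted p 4.7e-05). The sum was 1617, 1685 and 1574 CPM in untreated cells, 2496, 2766 and 2633 CPM with EGF, and 1700 CPM, 1977 CPM and 1876 CPM with bleogen pB1. HSPA1A made up 51.6% ± 1.30 of the pair in untreated cells, 55.3% ± 1.95 with EGF and 53.7% ± 1.28 with bleogen pB1 (SD, n = 3). The share was above the untreated range in both treated groups, each at the smallest p of the exact permutation test, 0.1. For bleogen pB1 the separation was narrow, with pB1 replicate 3 at 52.52% and untreated replicate 2 at 52.48%. How the split depends on read assignment was not tested.

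The cytosolic HSP90 genes differed in how far they rose. HSP90AA1, the inducible form, measured 1465, 1479 and 1624 CPM in untreated libraries, 2775, 2789 and 2888 CPM with EGF and 1727, 2297 and 1889.5 CPM with bleogen pB1. HSP90AB1, the constitutive form, measured 2070.3, 2089 and 2198 CPM, 3572, 2954 and 3181 CPM and 2346, 2719.7 and 2493 CPM. For both genes the 3 groups were separate and in the same order, and within the pB1 group replicate 2 was the highest. With EGF the log2 fold change of HSP90AA1 was 0.89 ± 0.09 (SE), with an adjusted p of 3.1e-06, and that of HSP90AB1 was 0.61 ± 0.08 (SE), with an adjusted p of 2e-05. The ratio of HSP90AB1 to HSP90AA1 in FPKM was 1.77, 1.77 and 1.70 in untreated cells and 1.61, 1.33 and 1.38 with EGF, groups that did not overlap. With bleogen pB1 the ratio was 1.70, 1.49 and 1.66, which overlapped the untreated values by 1 library.

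For bleogen pB1 the log2 fold change was 0.37 ± 0.09 (SE), with an adjusted p of 0.04, for HSP90AA1 and 0.25 ± 0.08 (SE), with an adjusted p of 0.088, for HSP90AB1. Without pB1 replicate 2 these were 0.24 and 0.19. EGF-treated cells had more HSP90AA1 than pB1-treated cells by 0.52 ± 0.09 (SE), with an adjusted p of 0.00035, a call that was lost without pB1 replicate 1 (0.43), without pB1 replicate 3 (0.49), with upper-quartile scaling (0.43), without scaling factors (0.44) and with limma on FPKM (0.44). HSP90AB1 differed by 0.36 ± 0.08 (SE), with an adjusted p of 0.0016, which was under the fold limit.

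HSPH1 and DNAJB1 act on HSP70 from either side of its cycle, HSPH1 as the HSP110 nucleotide exchange factor and DNAJB1 as the J protein that also recruits HSP70 to HSF1. HSPH1 measured 389, 396 and 415 CPM in untreated cells, 858, 823 and 855 CPM with EGF and 432, 569 and 498 CPM with bleogen pB1, 3 ranges that were separate. It rose by 1.08 ± 0.08 (SE), with an adjusted p of 2.8e-07, with EGF and was 0.32 ± 0.08 (SE), with an adjusted p of 0.05, with bleogen pB1, which was 0.21 without pB1 replicate 2. DNAJB1 measured 212, 228 and 214 CPM in untreated cells and 318, 371 and 332 CPM with EGF, where all libraries were higher. With bleogen pB1 it measured 208, 236 and 211 CPM, with replicates 1 and 3 just below the untreated range and replicate 2 above it. It rose by 0.64 ± 0.07 (SE), with an adjusted p of 5.9e-06, with EGF, and with bleogen pB1 the mean was 218 CPM against 218 CPM, a log2 fold change of -0.00 ± 0.07 (SE), with an adjusted p of 1. Between EGF and pB1 the log2 difference was 0.76 ± 0.08 (SE), with an adjusted p of 7.7e-06, for HSPH1 and 0.64 ± 0.07 (SE), with an adjusted p of 8.9e-06, for DNAJB1. The HSPH1 windows held no heat shock pattern, while DNAJB1 has GAANNTTC at 2 places in the stretch shown.

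HSPB1 (HSP27), a small heat shock protein that also acts on actin filaments, was the only one of the 10 that EGF lowered. It measured 579.7, 609 and 448 CPM in untreated libraries and 168, 158 and 156 CPM with EGF, and the groups were far apart. With bleogen pB1 it measured 695, 459.7 and 565 CPM, a range that contained most of the untreated one. The log2 fold change was -1.76 ± 0.14 (SE), with an adjusted p of 3.1e-07, for EGF and 0.07 ± 0.13 (SE), with an adjusted p of 0.8, for bleogen pB1, and the direct difference between EGF and pB1 was -1.83 ± 0.14 (SE), with an adjusted p of 3.2e-07. The call for EGF held in all settings tried, with values between -1.89 and -1.68. The pB1 value lay between -0.09 and 0.20 in these settings, negative without pB1 replicate 1 or untreated replicate 3. HSPB1 varied most among the 10 relative to its mean in untreated and pB1 cells, at 546 ± 85.7 and 573 ± 118 CPM (mean ± SD, n = 3). In the pB1 group it was lowest in replicate 2, the library in which 8 of the other genes were highest.

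HSPA5 (BiP), the HSP70 of the endoplasmic reticulum and the main binding partner of its stress sensors, measured 742, 733 and 763 CPM in untreated cells, 1240.4, 1127 and 1187 CPM with EGF and 845, 921 and 868 CPM with bleogen pB1. The 3 groups were separate, in the order untreated, pB1, EGF. The increase was 0.67 ± 0.06 (SE), with an adjusted p of 8.8e-07, with EGF. With bleogen pB1 the log2 fold change was 0.24 ± 0.06 (SE), with an adjusted p of 0.045, which passed the adjusted p but not the fold limit, and it was 0.20 without pB1 replicate 2. EGF and pB1 differed by 0.43 ± 0.06 (SE), with an adjusted p of 4.8e-05, also under the fold limit. HSPA5 had the smallest standard errors of the 10.

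HSF1 itself had the smallest log2 fold change of the 10 with EGF. The gene (NCBI gene 3297) lies at chr8:144291591-144314720 on the plus strand and overlaps DGAT1 and ENSG00000254690 on the opposite strand. It measured 90.3, 93.4 and 87.7 CPM in untreated cells, 106, 129.6 and 112 CPM with EGF and 84.3, 87.2 and 88.5 CPM with bleogen pB1. EGF libraries were all above the others, while the pB1 and untreated libraries overlapped. The log2 fold change was 0.36 ± 0.07 (SE), with an adjusted p of 0.00077, for EGF, below the fold limit in each setting tried, and -0.06 ± 0.07 (SE), with an adjusted p of 0.65, for bleogen pB1. Between EGF and pB1 it was 0.42 ± 0.07 (SE), with an adjusted p of 0.00032. HSF1 is regulated chiefly as a protein, by trimer formation and phosphorylation, which RNA counts do not measure.

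**Figure D2:**
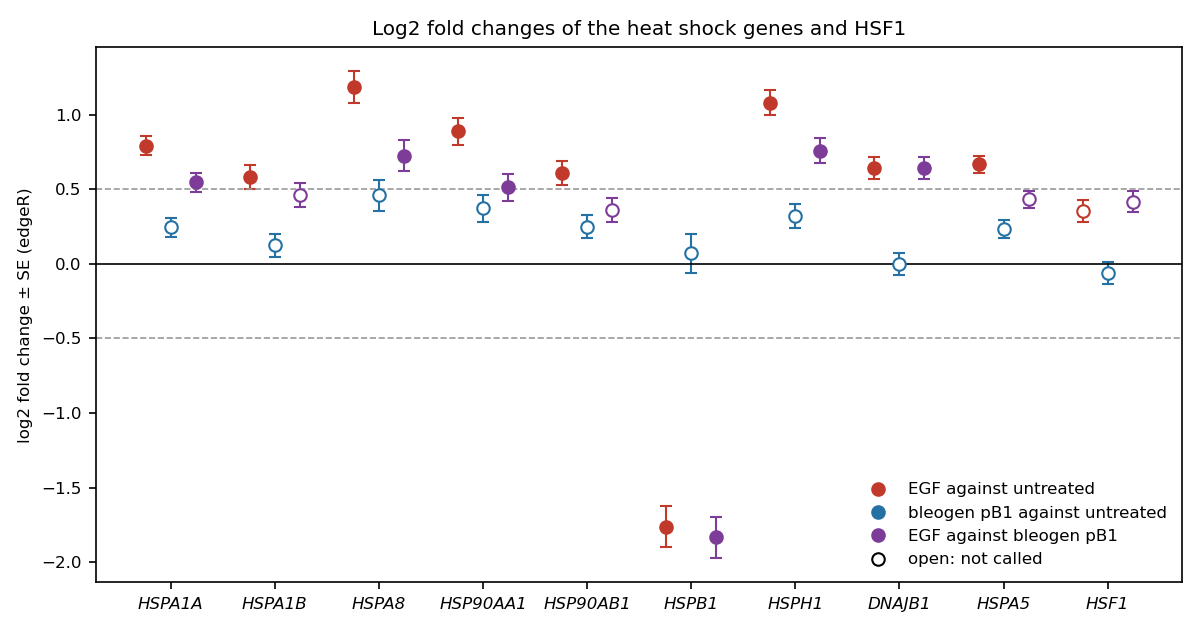
Log2 fold change of each gene with its SE from edgeR (y axis) in the 3 comparisons, 3 libraries a group, filled where called and open where not, with dashed lines at the fold limit of 0.5. The EGF values run from -1.76 for HSPB1 to 1.19 for HSPA8, and all bleogen pB1 values lie inside the dashed lines.

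Per transcript length, HSPA8 was the most abundant of the 10 in every group. Its FPKM was 1205, 1219 and 1259 in untreated replicates 1 to 3 (mean 1228 ± 28.1 SD, n = 3), 2669 ± 248 with EGF and 1713 ± 294 with bleogen pB1. In untreated cells HSP90AB1 followed at 813 ± 31.0, then HSPB1 at 661 ± 99.5, HSP90AA1 at 466 ± 29.3, HSPA1A at 356 ± 18.0, HSPA1B at 320.3 ± 4.23 and HSPA5 at 193 ± 5.20 FPKM. DNAJB1 at 96.7 ± 3.58, HSPH1 at 76.5 ± 2.99 and HSF1 at 43.1 ± 1.04 FPKM came last, and no neighbours in this order overlapped. The inducible HSP70 genes were thus already expressed in untreated cells.

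EGF moved HSPB1 from rank 3 to rank 7, to 185 ± 8.55 FPKM, below HSPA5 at 293 ± 13.0. HSPH1 (155 ± 3.23) passed DNAJB1 (144 ± 11.5) in the mean, but their libraries overlapped. With bleogen pB1 the order was that of untreated cells, except that HSPB1 (709 ± 143) overlapped HSP90AA1 (611 ± 92.6) and DNAJB1 (97.1 ± 7.08) overlapped HSPH1 (96.7 ± 13.4). The ratio of HSPA8 to the HSPA1 pair in FPKM was 1.79, 1.75 and 1.91 in untreated cells, 2.94, 2.20 and 2.53 with EGF and 2.02, 2.42 and 2.10 with bleogen pB1. Both treated groups lay above the untreated one, each with a p of 0.1 by the exact permutation test (two-sided), which is the least that 3 against 3 allows. EGF and pB1 overlapped in this ratio.

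**Figure D3:**
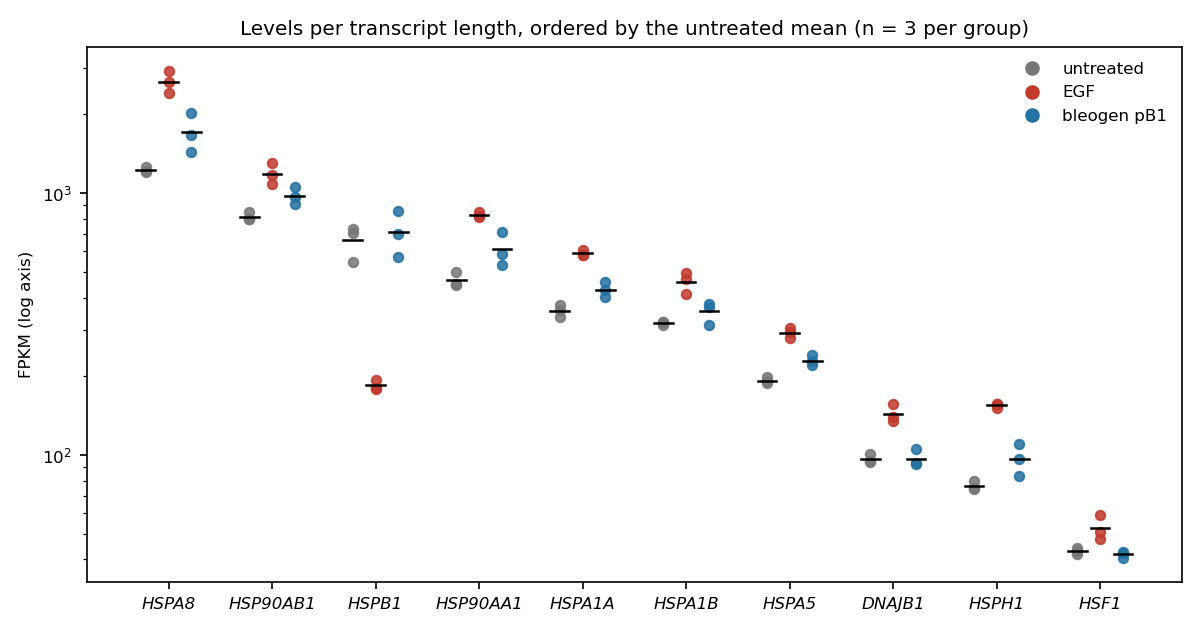
FPKM of each gene in every library on a log axis, ordered by the untreated mean, with a line at each group mean (n = 3). HSPA8 is highest in every group, and HSPB1 drops from the third place in untreated cells to 185 FPKM with EGF.

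Libraries of a treatment group differed in how far these genes moved. The median of the 10 log2 differences from the untreated mean was 0.74, 0.73 and 0.64 in EGF replicates 1 to 3, and 0.15, 0.32 and 0.23 in pB1 replicates 1 to 3. The medians over all tested genes stayed between -0.01 and 0.01 in the same libraries. For the 102 other chaperone genes described next the medians were 0.45, 0.42 and 0.44 with EGF, and 0.06, 0.24 and 0.11 with bleogen pB1, where replicate 2 was again the highest. Among the pB1 libraries replicate 2 was the highest for 8 of the 10 genes, replicate 1 for HSPB1 and replicate 3 for HSF1. In the EGF group replicate 1 was the highest for 5 genes (HSPA8, HSP90AB1, HSPB1, HSPH1 and HSPA5), replicate 2 for 4 and replicate 3 for 1. The pB1 libraries held 20629237, 21113447 and 20867849 expected counts, and the part of depth or of any other property of replicate 2 in these values was not tested.

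Other chaperone genes, 110 in 9 lists of which 102 passed the filter, showed where the 10 stood in the wider network. With EGF 44 of the 102 were upregulated and 6 downregulated, where 15.1% and 21.8% of all tested genes were, at a median log2 fold change of 0.45. With bleogen pB1 none was called by edgeR, DESeq2 or limma, and at an unadjusted p under 0.05 edgeR gave 43 higher and 3 lower (11.7% and 10.5% of all tested genes), at a median of 0.12. By adjusted p alone, 5 were higher with bleogen pB1: STIP1 (0.35, adjusted p 0.03), PPID (0.32, 0.045), HSPE1 (0.36, 0.024), CALR (0.35, 0.011) and CRELD2 (0.45, 0.038). These compare with 1.56% of all tested genes higher and 2.55% lower at that limit. Between EGF and pB1, 26 were called higher with EGF and 4 lower, where 10.8% and 18.0% of all tested genes were.

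Among the HSP70 family and its exchange factors, EGF upregulated 7 of 14 tested genes and downregulated none (15.1% and 21.8% of all tested genes). With limma 6 were called higher. The 7 included HSPA13, of microsomes, at 0.83 (adjusted p 1.4e-05), HSPA14, of ribosomes, at 0.67 (1.6e-06), and BAG3, the exchange factor of chaperone-assisted autophagy, at 0.71 (5.9e-07). BAG3 was at 165–175 CPM in untreated cells, 258–293 with EGF and 186–199 with bleogen pB1, so its groups were separate. HSPA2 was at 30.1–33.6 CPM in untreated cells and 32.4–34.0 with EGF (log2 fold change 0.06, adjusted p 0.47). HSPA6, which is strictly heat-inducible, stayed at 1 to 10 counts per library and was not tested: 1, 1 and 4 counts in untreated cells, 5, 3 and 10 with EGF, and 2, 4 and 2 with bleogen pB1.

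Among cytosolic J proteins EGF upregulated 3 of 13 and downregulated 2, counts near the 15.1% and 21.8% of all tested genes. By adjusted p alone 10 were higher and 3 lower, against 32.4% and 33.6% of all tested genes. The median log2 fold change of the list was 0.33. DNAJA4 rose by 1.18 (adjusted p 5.4e-06), from 11.6–12.5 to 26.6–28.1 CPM, DNAJC2, a ribosome-bound J protein, by 0.73 (8.3e-06), and DNAJA1 by 0.50 (6e-05), at the fold limit. DNAJB2, which sends HSP70 clients to the proteasome, fell from 73.0–76.7 to 32.6–36.3 CPM (log2 fold change -1.11, adjusted p 2.9e-07), and stood at 67.7–85.9 CPM with bleogen pB1. DNAJB5, near the detection limit at 0.812–1.16 CPM in untreated cells, was the other (-0.91, 0.043), and DESeq2 and limma each called 1 of these 2.

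Of 13 HSP90 co-chaperones EGF upregulated 8 and downregulated none (15.1% and 21.8% of all tested genes), at a median of 0.63. With limma 7 were called higher. PPID, a cyclophilin that binds HSP90, went from 38.4–43.2 to 81.5–85.2 CPM (log2 fold change 1.05, adjusted p 2e-07), AHSA1, the activator of the HSP90 ATPase, from 158–162 to 274–286 CPM (0.80, 4.5e-07), and STIP1, which links HSP70 to HSP90, from 261–271 to 428–499.7 CPM (0.79, 2.4e-06). With bleogen pB1 these 3 stood at 45.0–54.6, 173–208 and 309.9–381 CPM. FKBP5 had 0 to 8.96 counts per library and was not tested.

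In the cytosolic chaperonin and prefoldin, which fold actin and tubulin, EGF upregulated 8 of 14 genes and downregulated 1. Of all tested genes 15.1% were called higher and 21.8% lower, and limma called 7 and 1 of the list. CCT2 rose from 212–245 to 402–427 CPM (log2 fold change 0.87, adjusted p 2.1e-06) and the prefoldin subunit PFDN2 from 37.2–41.1 to 63.7–72.6 CPM (0.82, 9.5e-07), while PFDN5 fell from 95.5–106 to 52.3–68.1 CPM (-0.71, 0.00014). Of 11 mitochondrial chaperones 6 were upregulated and none downregulated, and limma called 4 higher. The matrix chaperonin HSPD1 changed by 0.73 (adjusted p 3.5e-05), its cap HSPE1 by 0.82 (1.5e-06), the exchange factor GRPEL1 by 1.03 (2.3e-07) and the protease LONP1 by 0.73 (1.5e-05), whereas HSPA9, the mitochondrial HSP70, was 0.33 higher (0.0062), under the fold limit.

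The other small heat shock proteins were mostly below the filter. Of 7 in the list only HSPB8 and HSPB11 were tested, and neither passed at an unadjusted p under 0.05 in any comparison or was called by DESeq2 or limma. HSPB8 was at 15.1–18.5 CPM in untreated cells, 17.5–18.6 with EGF and 16.4–21.5 with bleogen pB1, a log2 fold change of 0.05 with EGF (adjusted p 0.73). CRYAB had 0 to 3 counts per library.

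Of 18 other endoplasmic reticulum chaperones, EGF upregulated 8 and downregulated 1, and 9 were not called, at a median of 0.46. Of all tested genes 15.1% were called higher and 21.8% lower, and limma called 7 of the list higher. HYOU1, the exchange factor of HSPA5, rose from 181–192 to 361–377 CPM (log2 fold change 0.97, adjusted p 1.1e-07), and the J proteins of this compartment DNAJB9, DNAJB11 and DNAJC3 by 0.86, 0.80 and 0.62 (adjusted p 8.8e-05, 3e-07 and 1.6e-05). HSP90B1, the HSP90 of the compartment, was 0.37 higher (0.00014), under the fold limit, and ERO1B fell by 0.54 on the log2 scale (0.035), while limma called 0 of the list lower. CALR, a lectin chaperone, had a log2 fold change of 0.09 with EGF (0.23) and was lower with EGF than with pB1 (-0.26, adjusted p 0.0047), the reverse of HSPA5. SIL1, another exchange factor of HSPA5, was at -0.29 with EGF (0.015), under the fold limit. EGF and pB1 differed in DNAJB9 by 1.08 (adjusted p 2.3e-05), which stood at 7.79–9.13 CPM with bleogen pB1 and 9.68–10.5 CPM in untreated cells.

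The regulators of the unfolded protein response divided with EGF, 4 of 13 being upregulated and 1 downregulated (15.1% and 21.8% of all tested genes). EDEM1, which extracts misfolded glycoproteins, rose by 1.38 (adjusted p 6.6e-08), XBP1, the response's transcription factor, by 1.11 (4.7e-07), ERN1, which splices XBP1, by 1.03 (2.1e-05), and PPP1R15A by 0.92 (1.1e-05), while ATF6B fell by 0.91 on the log2 scale (8.8e-07). HERPUD1 was at 60.8–68.9 CPM in untreated cells and 56.2–67.4 CPM with EGF (-0.10, 0.29). The median of this list with bleogen pB1 was -0.06, and 0 were called by edgeR, DESeq2 or limma, with 3 lower and none higher at an unadjusted p under 0.05. Of the other heat shock factors, HSF4 fell from 9.33–10.6 to 3.85–5.99 CPM with EGF (-1.05, adjusted p 0.00019), and HSF2 was at 19.5–20.7 and 22.6–23.4 CPM (0.19, 0.035). HSF5 did not exceed 1 count in any library.

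**Figure D4:**
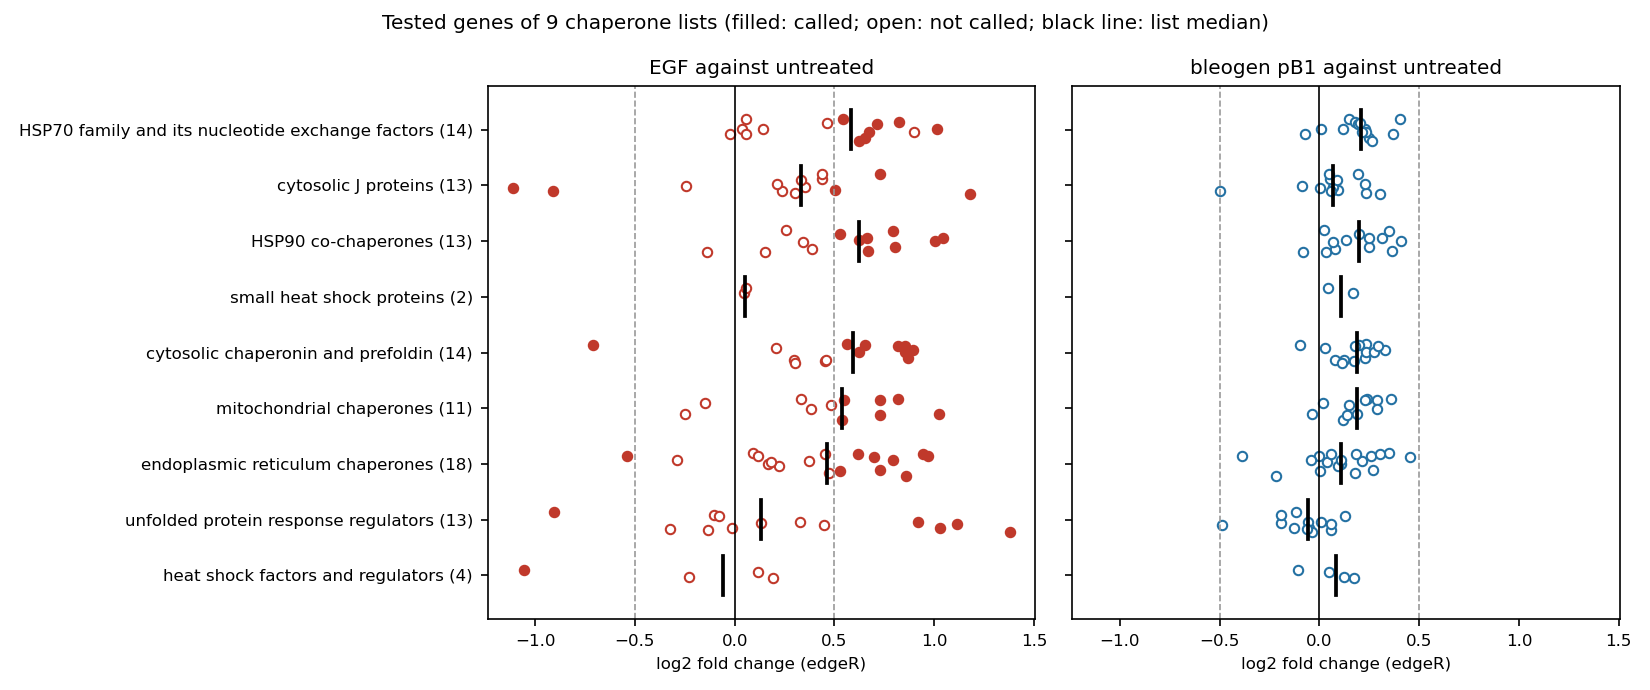
Log2 fold change (x axis, edgeR) of each tested gene in 9 chaperone lists, with the number tested in brackets, for EGF and for bleogen pB1 against untreated cells. Filled points were called, open points were not, dashed lines mark the fold limit of 0.5 and black lines the list medians, which reach 0.63 with EGF and 0.21 with bleogen pB1.

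For HSPA8, HSPB1, HSPA5 and HSF1, the genes closest in pattern over the 9 libraries were of many kinds. By Pearson's r of log2 CPM over 10858 tested genes with at least 50 counts on average, HSPA8 was closest to PRPF4, NCLN and BOP1, at 0.998, 0.998 and 0.997. HSPB1 was closest to IVNS1ABP, FBLN1 and PKN3 at 0.997, HSPA5 to ITGA6 (0.997), PRPF3 (0.996) and GART (0.996), and HSF1 to FBRS, STARD3 and RILPL2 at 0.992, 0.992 and 0.991. These r are the 3 highest for each gene, so their size partly reflects that choice. They describe 9 points that fall into 3 treatment groups and share their libraries.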

How the data were processed

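RNA of 9 HaCaT samples (3 untreated, 3 with EGF, 3 with bleogen pB1) was sequenced from poly-A selected, strand-marking libraries, with GRCh38.p12 as the reference. The authors deposited, for each library, expected counts, estimated counts that need not be whole, and FPKM per gene, with gene lengths. The counting program and its strand setting are not given in the sources used here. Absent genes were set to 0. Expected counts were rounded and fitted over all 9 libraries with edgeR 4.0.16 (quasi-likelihood test, TMM factors, filterByExpr, 12394 of 16199 genes, 6 residual df) in R 4.3.3, with Benjamini-Hochberg adjustment over all tested genes. The SE given with an edgeR log2 fold change is its absolute value divided by the square root of the test's F statistic. FPKM were compared between genes and, as log2(FPKM + 1) or log2(FPKM + 0.1), tested with limma 3.58.1 as an alternative. Other alternatives were DESeq2 1.42.0, other scaling factors and filters, a replicate block, other call limits, the 6 libraries of a comparison alone and leaving out each library. Scripts were tested on simulated data. Libraries held 20288417 to 21320994 expected counts, and a floor of 3 counts was 0.141 to 0.148 CPM, which covers counting error only.

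The genes, lists and tests were chosen with earlier results of these data known. All 10 genes were named, with a set part of the lists, the 2 called genes of smallest adjusted p in each list and comparison, and the 3 genes of highest r for 4 members. DNAJB5, DNAJC2, PFDN5, ERO1B, ATF6B, ERN1, PPP1R15A, CALR, CRELD2 and others outside this rule were named after their values were seen. No pair of replicates agreed within sampling noise.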

Additional observations from a re-analysis of the deposited data

How the results depend on the processing

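No value changed sign past the threshold under any alternative. Of the log2 fold changes of the 10 genes under the alternatives, 171 of those for EGF against untreated cells kept their side of the threshold and 1 lost it, for bleogen pB1 171 kept it and 1 gained it, and for EGF against pB1 157 kept it, 12 lost it and 3 gained it. By adjusted p alone the numbers of the 10 genes called were 4 for bleogen pB1 (0 with the fold limit) and 10 for EGF against pB1 (6), and of all tested genes 8187 for EGF (4578), 509 for bleogen pB1 (183) and 7214 for EGF against pB1 (3564). At a fold limit of 1 on the log2 scale, 3 of the 10 were called for EGF (9) and 1 for EGF against pB1, and 1892, 31 and 1458 of all tested genes in the 3 comparisons. Leaving out each library in turn gave 9 to 9 of the 10 genes for EGF, 0 to 1 for bleogen pB1 and 5 to 7 for EGF against pB1, and 4405 to 4737, 102 to 436 and 3106 to 4041 of all tested genes. With upper-quartile factors the median of all tested genes moved to -0.12 for EGF, and 1396 of 4617 calls were higher, beside 1875 of 4578. The cause of these differences was not tested. Deviations of same-numbered treated and untreated libraries correlated at 0.045, 0.036 and 0.004 for EGF and 0.207, -0.030 and 0.113 for bleogen pB1. Those of different-numbered libraries ran from -0.076 to 0.041 for EGF and from -0.253 to 0.163 for bleogen pB1. With 3 libraries a group, these values cannot decide whether replicate numbers pair the libraries. With the replicate block 9, 0 and 6 of the 10 genes and 4560, 186 and 3550 of all tested genes were called, and by adjusted p alone 2 of the 10 (HSP90AA1 and HSPA1A) for bleogen pB1, in place of 4. Depth did not limit the 10 genes, of which HSF1 was the lowest, while HSPA6, CRYAB, FKBP5 and HSF5 could not be tested at this depth.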
